A study of Mus musculus with 495 samples.

Results

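Neurog3-positive cells of the mouse embryonic pancreas were compared between embryonic days E17.5 and E15.5. The cells were chosen by their own read counts: a cell counted as Neurog3-positive at 20 CPM or more of Neurog3 (CPM, counts per 1000000 counts of the cell). Of 495 cells sequenced, 205 entered the comparison, 77 at E17.5 and the others at E15.5. At E17.5 they were 33 of 57 cells on plate EA06 and 44 of 72 on plate EA07. At E15.5 they were 41 of 73 cells on plate EA01, 43 of 72 on EA02 and 44 of 70 on EA03.

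The E17.5 embryos carried Neurog3-Cre together with Rosa-mTmG, a reporter at the Rosa26 locus in which Cre exchanges membrane tomato for membrane GFP. GFP in that strain therefore also marks descendants of cells in which the Neurog3 promoter once drove Cre. The E15.5 embryos carried Neurog3-eGFP, a knock-in at the Neurog3 locus, and no Cre. Plates EA06 and EA07 were coded Neurog3-cre, EA01 and EA03 Neurog3 and EA02 endocrine, the library titles of EA06 and EA07 carried a suffix that those of EA01 to EA03 lacked, and the labels named no treatment. Stage, strain and library batch thus changed together and cannot be told apart. Since no animal or litter is named, a stage counts as 1 sample divided among plates and the comparison carries no test. A further E15.5 Neurog3-eGFP plate, EA05, coded endocrine and with the title suffix of the E17.5 plates, held 7 Neurog3-positive cells of 85 and was kept out of the comparison as a check. Plate EA04, coded duct, held 0 of 66 (exact 95% interval up to 5.44%).

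Neurog3 is a basic helix-loop-helix transcription factor that is switched on for a short time in progenitors of the pancreatic epithelium and is required for the islet endocrine cells of the mouse. It acts upstream of transcription factors such as Neurod1, Insm1 and Pax4. Cells that pass through this stage leave the cell cycle, enter a precursor stage marked by Fev, fill secretory granules and begin to make an islet hormone, among them insulin, glucagon, somatostatin, ghrelin and pancreatic polypeptide. Early and late embryonic progenitors are known to feed different hormone-producing cells.

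The libraries differed between the stages in several measures. Median counts per Neurog3-positive cell were 536762 on EA06 and 880740 on EA07, against 467249 to 528488 on the E15.5 plates, and median genes per cell were 2245 and 3862 against 2416 to 2424. The ribosomal RNA gene Rn45s took 10.7% and 8.65% of counts at E17.5, against 21.4% to 22.7% at E15.5 and 11.3% on EA05. Cre was read in 23 of 33 cells on EA06 and 40 of 44 on EA07 and had 0 counts on every E15.5 plate, so the reporters followed the labels, although a knock-in tag stands in all the table's column headings. GFP was read in every E17.5 cell (1324 and 1391 CPM summed over a plate's cells) and in 19.5% to 34.1% of the cells on an E15.5 plate (22.02 to 28.1 CPM). Tomato had 0 counts in Neurog3-positive cells. Y-linked genes had 0 counts on both E17.5 plates, where Xist was read in 30 of 33 and 44 of 44 cells, whereas 39.02% to 45.5% of cells on each E15.5 plate had Y-linked counts. The part of depth, Rn45s and sex in the gene differences was not tested beyond the alternatives given with the results.

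Neurog3 itself spread over a wider range at E17.5. Per cell it was 20.3 CPM at the lowest, 904.6 at the median and 14550 at the highest in E17.5 cells, against 22.45, 3705 and 10590 CPM in E15.5 cells. The quartiles were 163 and 5637 CPM at E17.5, against 1786 and 5198 CPM at E15.5. At 500 CPM or more stood 43 of 77 E17.5 cells (55.8%, exact 95% interval 44.1 to 67.2, counting error only, as for all intervals here) and 91.4% of E15.5 cells (85.1 to 95.6; 38, 37 and 42 cells on EA01, EA02 and EA03). The highest level and the larger share of low levels were both found at E17.5. Just inside the threshold, at 20 to 40 CPM, were 8 cells at E17.5 and 2 at E15.5, and just outside it, at 10 to 20 CPM, were 3 and 1. Summed over the cells of a plate, Neurog3 stood at 2374 CPM on EA06 and 3370 on EA07, against 3509 on EA01, 3554 on EA02 and 4011 on EA03, and at 2690 on EA05.

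**Figure D1:**
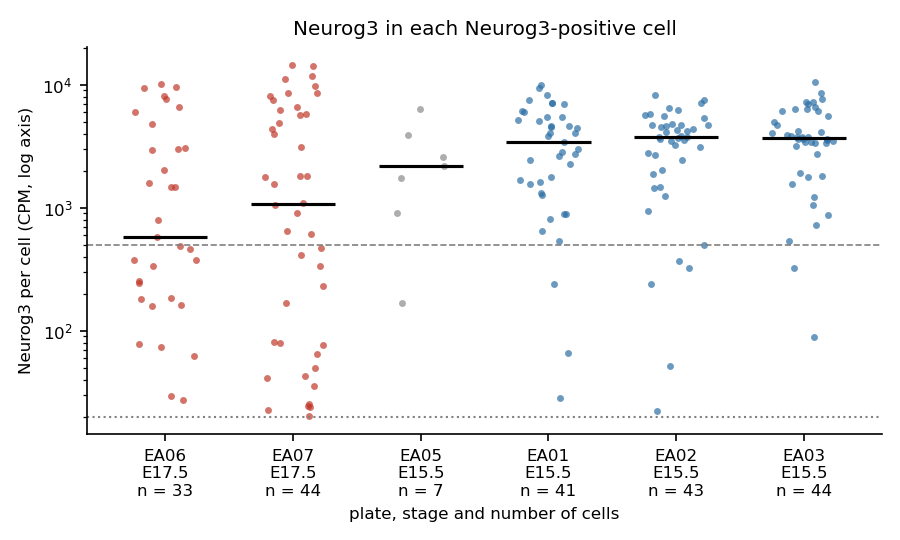
Neurog3 in each Neurog3-positive cell (CPM, log axis) by plate, with E17.5 plates in red, the E15.5 plate EA05 in grey and the other E15.5 plates in blue. Black lines are medians, the dotted line is the 20 CPM threshold and the dashed line is 500 CPM; the E17.5 cells run over the whole range from 20.3 to 14550 CPM while 91.4% of E15.5 cells lie at or above the dashed line.

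Hormone transcripts were read together with Neurog3 far more often at E17.5. At 1000 CPM or more of Ins1, Ins2, Gcg, Sst, Ghrl or Ppy were 22 of 77 E17.5 cells (28.6%, 18.8 to 40) and 4 E15.5 cells (3.12%, 0.858 to 7.81). By plate these were 13 of 33 cells on EA06 and 9 of 44 on EA07, against 2 of 41 on EA01, 1 of 43 on EA02 and 1 of 44 on EA03. Both E17.5 plates lay above every E15.5 plate, and EA05 held 0 of 7. Fev, the transcription factor that marks the precursor stage, was at 20 CPM or more in 31 of 77 E17.5 cells (40.3%, 29.2 to 52.1) and 22 E15.5 cells (17.2%, 11.1 to 24.9). Here the plates overlapped, with 8 of 33 cells on EA06 and 23 of 44 on EA07, against 10 of 41 on EA01, 8 of 43 on EA02 and 4 of 44 on EA03. Cells at 500 CPM or more of Neurog3 with neither Fev nor a hormone made up 24 of 77 at E17.5 (31.2%, 21.1 to 42.7) and 78.1% at E15.5 (70 to 84.9).

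**Figure D2:**
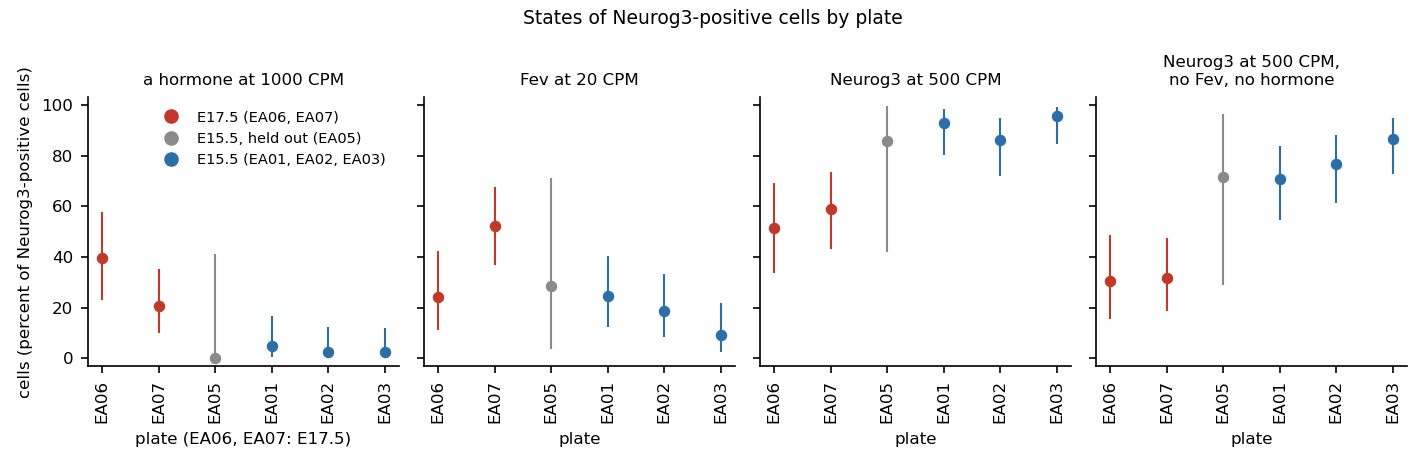
Share of Neurog3-positive cells on each plate (percent) with a hormone at 1000 CPM, with Fev at 20 CPM, with Neurog3 at 500 CPM, and with Neurog3 at 500 CPM but neither Fev nor a hormone; bars are exact 95% intervals for counting error, E17.5 plates are red and stand left. Hormone shares are 39.4% and 20.5% on the E17.5 plates and 2.27% to 4.88% on EA01 to EA03.

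Ghrl, which encodes ghrelin, the peptide of epsilon cells, was read at 1000 CPM or more in 11 of the 13 hormone-positive cells of EA06 and in 4 of the 9 of EA07, against none of the 4 at E15.5. Of all Neurog3-positive cells these were 15 of 77 at E17.5 (19.5%, 11.3 to 30.1), against none of the E15.5 cells (exact interval up to 2.84%). A single E15.5 cell had any Ghrl count, at 174 CPM. Among Neurog3-negative cells of the same plates, 5 of 52 at E17.5 (9.62%, 3.20 to 21) and 7 of 87 at E15.5 (8.05%, 3.30 to 15.9) reached 1000 CPM of Ghrl, so the transcript was present at both stages. Of the plates sequenced, EA06 and EA07 were those that held cells with both transcripts at these thresholds. Somatostatin (Sst) reached 1000 CPM in 5 E17.5 cells and 1 E15.5 cell, and the insulin gene Ins2 in 2 and 1.

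The 15 cells with both transcripts, all at E17.5, carried other genes known from epsilon cells. The genes given here were picked after their values were seen. Mboat4, the enzyme that acylates ghrelin, had medians of 848 and 0 CPM in them and in the 55 E17.5 cells without a hormone, and Arg1, the arginase gene, 940 and 0 CPM. Pax4, a transcription factor of the beta and delta lineages, had medians of 0 and 293 CPM, and Neurog3 of 582 and 1789 CPM. Fev was at 10 CPM or more in 13.3% of the 15 cells and in 49.1% of the 55 cells without a hormone. Of all Neurog3-positive cells, 24.2% on EA06 and 52.3% on EA07 had Fev at 20 CPM or more. Of the 15 cells 11 were on EA06, and those with Fev were all on EA07. The contrasts between the 15 and the 55 cells were not split by plate, and the part of plate in them was not tested.

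For the comparison of all genes, the counts of a plate's Neurog3-positive cells were summed and divided by their total. A gene was measured at 20 CPM or more at either stage, and was called higher or lower at E17.5 when both E17.5 plates lay above or below all 3 E15.5 plates. Of 7940 measured genes, 1614 were higher (20.3%) and 690 were lower (8.69%). These shares are the background for the counts of gene groups, and the calls are the rule by which genes were chosen, so they are a description with no test. Of the 7940 genes, 1596 reached 20 CPM at E17.5 alone and could not be called lower. Another 525 reached it at E15.5 alone and could not be called higher, so both shares rest in part on the filter. The log2 ratio of E17.5 over E15.5, taken after adding 5 CPM to both levels, had a median of 0.31 over all measured genes, which is the value to set the others against. With TMM factors the median was 0.05, 1131 genes were higher (14.4%) and 1097 lower (13.9%), with DESeq2 size factors 1128 and 1092, and without Rn45s in the totals 1239 and 1098, so that the excess of higher genes (70.05% of calls as reported) became 50.8%, 50.8% and 53.02%. Neurog3 lay just inside the rule for lower genes, its highest E17.5 plate at 3370 CPM and its lowest E15.5 plate at 3509 CPM. Nkx6-1, a transcription factor of beta cells, lay just outside the rule for higher genes at 82.6 and 66.6 CPM against 53.1, 71.9 and 55.1 CPM.

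Among the leading genes, the 15 with the widest gap between plates in each direction, Ghrl headed those higher at E17.5. It stood at 5661 and 1648 CPM on EA06 and EA07, against 0, 3.62 and 0 CPM on EA01, EA02 and EA03 (log2 ratio 8.92, 8.07 without EA06 and 9.85 without EA07). Leaving out every cell with a hormone at 1000 CPM, Ghrl was at 34.9 and 47.6 CPM against 0, 3.73 and 0 CPM. The cells left were selected on Ghrl itself, so this is no separate finding. The highest of them held 343 and 419 CPM on EA06, and 332 and 980 CPM on EA07. Pcsk1n, which encodes an inhibitor of the prohormone convertase PC1, stood at 206.0 and 417 CPM against 6.51, 15.47 and 13.5 CPM (4.40, and 3.66 without EA07), and was read at 10 CPM or more in 62.3% of E17.5 cells and 9.38% of E15.5 cells. Iapp, the gene of the islet peptide amylin, stood at 1125 and 1334 CPM against 280, 169.1 and 51.7 CPM (2.88, and 3.48 without EA01). In cells without a hormone Iapp was at 161 and 65.3 CPM against 3.25, 15.95 and 3.14 CPM (2.95). Gch1, which makes the cofactor of serotonin synthesis, stood at 826 and 665 CPM against 131.58, 160.83 and 117.97 CPM (2.36).

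Of the other leading genes higher at E17.5, the adhesion molecule gene Alcam stood at 225.0 and 167.0 CPM against 29.7, 7.09 and 13.6 CPM (log2 ratio 3.11) and was read at 10 CPM or more in 62.3% of E17.5 and 13.3% of E15.5 cells. The receptor tyrosine kinase gene Ephb2 stood at 47.04 and 59.96 CPM against 4.85, 0.153 and 3.06 CPM (2.97). Tubb2a, a beta-tubulin gene, stood at 90.8 and 108.5 CPM against 9.42, 9.85 and 8.13 CPM (2.93), and Camk2b, a calmodulin-dependent kinase gene, at 26.6 and 94.8 CPM against 0, 0 and 0.144 CPM, from 3 counts (3.94, and 2.65 without EA07). Tmem27, a membrane protein gene of islet cells, stood at 602 and 188 CPM against 28.99, 26.1 and 7.03 CPM (3.68, with 2.91 without EA06 and 4.56 without EA07). The wide distance between plates in these genes follows from the rule that chose them. Others were Esyt1, Abcb9, Pcp4, Mcm3ap and Dbpht2, with log2 ratios of 2.52 to 3.35; that of Pcp4, a calmodulin-binding peptide gene, was 3.27, and 3.99 without EA07.

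Ttll6, which encodes a tubulin polyglutamylase, headed the genes lower at E17.5. It had 0 counts on both E17.5 plates, against 339, 239.6 and 280.0 CPM at E15.5, where 60.9% of cells were at 10 CPM or more. On a floor of 3 counts summed over E17.5 cells it was at least 5580-fold lower. Slc16a5, a monocarboxylate transporter gene, stood at 2.67 and 14.2 CPM against 140, 244 and 190 CPM (log2 ratio -3.66, and -4.67 without EA07), and Mfap2, a microfibril protein gene, at 9.89 and 37.5 CPM against 172, 207 and 188 CPM (-2.53, and -3.70 without EA07). Tgm7, a transglutaminase gene, stood at 18.1 and 16.4 CPM against 150.2, 127.8 and 251.8 CPM (-3.05). The RNA-binding protein gene Mex3a stood at 0.837 and 14.2 CPM against 56.3, 94.1 and 66.5 CPM (-2.37, and -3.71 without EA07), and the imprinted non-coding RNA H19 at 12.8 and 2.69 CPM against 57.6, 129.2 and 48.8 CPM (-2.90, and -2.21 without EA07). These genes too were chosen for the distance between their plates. Others were Anp32a, Fscn1, Mob1a, Lbp, Cdk7, Epc2, Dab1 and Gtpbp4, with log2 ratios of -2.15 to -1.72; that of Cdk7 was -1.78, and -2.48 without EA07.

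**Figure D3:**
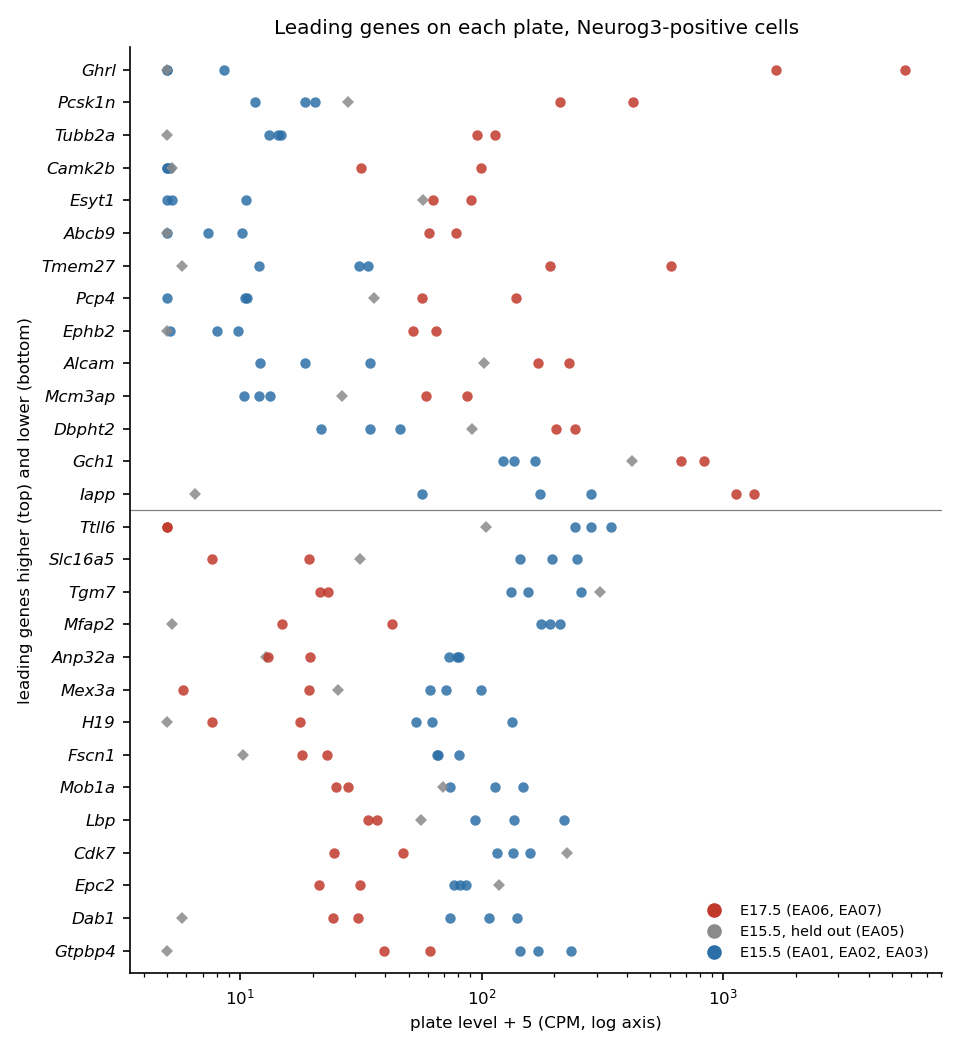
Level on each plate plus 5 (CPM, log axis) of the leading genes higher and lower at E17.5 that are reported here in Neurog3-positive cells, 1 gene per row. Red points are E17.5 plates, grey diamonds the E15.5 plate EA05, blue points EA01 to EA03; EA05 lies below both E17.5 plates in the 14 higher genes shown and above both in 8 of the 14 lower genes.

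Of 23 measured transcription factors of the endocrine lineage, 8 were higher, 2 lower and 13 overlapped between the stages (median log2 ratio 0.56, and 7 higher and 5 lower with TMM factors), and 3 of the 23 reached 20 CPM at E17.5 alone. Pax4, an early target of Neurog3, was lower at 420.2 and 545 CPM against 1191, 1101 and 1399 CPM (-1.28), and Nkx2-2, required for beta cells, at 185.1 and 114.1 CPM against 302, 304 and 320.3 CPM (-1.14). Among the higher members, Isl1, a factor of islet endocrine cells, stood at 1922 and 867 CPM against 706, 294.0 and 308 CPM (1.45, and 2.11 without EA07), and Pax6 at 507 and 362 CPM against 163, 144.5 and 87.8 CPM (1.60). Irx2, an alpha cell factor, stood at 51.6 and 81.4 CPM against 0.923, 3.42 and 12.5 CPM (2.85), and Pdx1, a factor of progenitors and beta cells, at 48.5 and 93.2 CPM against 18.8, 17.6 and 14.9 CPM (1.92, and 1.27 without EA07). Fev stood at 317 and 393 CPM against 158, 236 and 96.2 CPM (1.16). Neurod1 stood at 642 and 701 CPM against 752, 537 and 694 CPM, and Insm1 at 172 and 83.5 CPM against 165, 144.5 and 192 CPM, both with overlapping plates.

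Of 16 measured genes of the Neurog3 progenitor list, 7 were lower, 2 higher and 7 overlapped (median log2 ratio -0.49). In cells at 500 CPM or more of Neurog3 the list had 3 lower and 3 higher of 17 (0.12), and in those of them with neither Fev nor a hormone 2 lower and 3 higher of 17 (0.55), so its direction turned with the cells compared. Mdk, the growth factor midkine, stood at 984 and 549.5 CPM against 1802, 2213 and 2373 CPM (-1.61), and the transcriptional corepressor gene Cbfa2t3 at 315.1 and 120.6 CPM against 388, 628 and 610.3 CPM (-1.52, with -2.11 without EA06 and -0.76 without EA07). Hes6, a helix-loop-helix gene, stood at 160.5 and 552 CPM against 748, 798 and 824 CPM (-0.89, and -2.26 without EA07). The 2 higher members were Cdkn1a, an inhibitor of cyclin-dependent kinases, at 1197 and 1623 CPM against 897, 672 and 762 CPM (0.92), and the transcription factor gene Sox4. Sox4 stood at 52.6 and 366 CPM against 48.7, 37.01 and 37.9 CPM, so that its ratio of 2.53 was 0.31 without EA07 and its call was lost with TMM factors. In cells without a hormone, where 19.7% of all measured genes were higher and 8.73% lower, the list had 3 lower and 1 higher of 17 (-0.11).

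Secretory granule genes were higher as a group than on EA01 to EA03. The summed level of the 26 listed genes was 11130 to 18077 CPM on the E17.5 plates and 4249 to 6628 CPM on EA01 to EA03. On EA05, the E15.5 plate kept out of the comparison, it was 10546 CPM, from 7 cells, close to the lower E17.5 plate. Of 23 measured, 17 were higher and 1, the complexin gene Cplx2, was lower, with a median log2 ratio of 1.54 (14 higher and 1 lower of 22, and 1.56, in cells without a hormone), and 4 of the 23 reached 20 CPM at E17.5 alone. Chga, the granule protein chromogranin A, stood at 791 and 3922 CPM against 373, 150.5 and 276 CPM (3.40, and 1.53 without EA07), and Chgb, chromogranin B, at 586 and 2512 CPM against 424.1, 388.9 and 152.4 CPM (2.53, and 0.86 without EA07). The prohormone convertase gene Pcsk2 stood at 201.6 and 571.5 CPM against 89.8, 57.9 and 126.2 CPM (2.23, and 1.09 without EA07), and Cpe, the carboxypeptidase that trims prohormones, at 1348 and 2174 CPM against 692, 386 and 323 CPM (2.001). Snap25, of the fusion machinery, stood at 52.8 and 48.02 CPM against 7.53, 0.153 and 16.3 CPM (2.05), and Ptprn2, a granule membrane protein, at 558 and 513 CPM against 222.9, 129.1 and 126.6 CPM (1.68). Of these 6 genes, 4 had their higher E17.5 level on EA07.

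Of 10 measured hormone genes 5 were higher and none lower (median log2 ratio 1.38, and 2.21 without EA01). Besides Ghrl and Iapp these were Sst, Pyy and Ins1. Of the 10 genes 2, Ghrl and Ins1, reached 20 CPM at E17.5 alone and so could only lie on the higher side. Sst stood at 1464 and 870.4 CPM against 541, 0 and 0.0478 CPM (2.47, and 7.74 without EA01), and Pyy, peptide YY, at 3074 and 1398 CPM against 1255, 59.2 and 576 CPM (1.58, with 2.56 without EA01 and 2.23 without EA07). Single cells set several of these levels. Gcg, the glucagon gene, stood at 53.8 and 19.7 CPM against 0.139, 1921 and 0 CPM, where 1 cell of EA02 held 70405 CPM, and its ratio of -4.09 was 2.82 without EA02. Ins2 stood at 115.9 and 565.8 CPM against 493, 6.18 and 24.7 CPM, with overlapping plates.

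The level of G2 and M genes was low at both stages. All 7 measured G2 and M genes had negative log2 ratios and 5 were called lower (median -2.41, and -1.62 without EA03), and 6 of the 7 reached 20 CPM at E15.5 alone, so they could only be lower. Mki67, the proliferation marker, had 0 counts on both E17.5 plates, against 15.9, 21.9 and 25.5 CPM. Cdk1, the mitotic kinase, had 0 counts against 15.7, 12.4 and 68.3 CPM, at least 627-fold lower on the floor of 3 counts, with most of its E15.5 level from EA03. Of 17 listed G2 and M genes 12 had 0 counts in all 77 E17.5 cells, and 0 of 17 did so at E15.5. Cells with 3 or more of these genes at 20 CPM numbered 0 of 77 at E17.5 (exact interval up to 4.68%) and 6 at E15.5 (4.69%, 1.74 to 9.92). Of 13 S phase genes 5 were lower and none higher (-0.80, and -1.44 without EA07), among them Tyms, thymidylate synthase, at 27.7 and 20.6 CPM against 63.02, 42.1 and 56.2 CPM (-1.08). Of the 13, 4 reached 20 CPM at E15.5 alone and so could only lie on the lower side. The held-out E15.5 plate EA05, with 7 cells, lay below both E17.5 plates in the summed level of both lists. For G2 and M genes it was at 10.8 CPM, against 35.6 to 48.3 CPM at E17.5 and 174 to 711 CPM on EA01 to EA03. For S phase genes it was at 87.6 CPM, against 246 to 509 CPM at E17.5 and 591 to 704 CPM on EA01 to EA03.

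Among genes of the endoplasmic reticulum and of the stress response, more were higher than lower. Of 17 unfolded protein response genes 8 were higher and 1 lower (median log2 ratio 0.67), with 2 higher and 1 lower in cells without a hormone (0.31). Hspa5, the chaperone BiP, stood at 777 and 1388 CPM against 585, 313 and 514 CPM (1.31, and 0.70 without EA07), and Canx, the chaperone calnexin, at 485 and 269.7 CPM against 113.9, 60.99 and 112.2 CPM (1.76). Calr, calreticulin, was the lower member at 342 and 629.6 CPM against 744, 722 and 737.5 CPM (-0.45, and -1.09 without EA07). Of 14 immediate early genes, known to be induced when tissue is dissociated, 5 were higher and 1 lower (0.59), with Jund at 48.9 and 255 CPM against 26.8, 20.1 and 28.6 CPM (2.66, and 0.83 without EA07). The heat shock gene Hspa1a stood at 43.2 and 151.2 CPM against 0.185, 7.91 and 5.55 CPM (3.68, and 2.35 without EA07), within a list of 9 of which 3 were higher (0.29, below the median of all genes).

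Receptors, imprinted genes and the actin cytoskeleton had members on both sides. Of 15 growth factor receptor and antagonist genes 5 were lower and 1 higher (median log2 ratio -0.39). Gfra3, the receptor of the neurotrophic factor artemin, stood at 29.5 and 130.1 CPM against 212, 645 and 398 CPM (-2.03, and -3.59 without EA07), and Tgfbr1, a receptor of TGF-beta, at 40.2 and 70.4 CPM against 163.7, 151.2 and 137.6 CPM (-1.25). Smo, the transducer of hedgehog signals, was the higher one at 29.1 and 32.5 CPM against 1.52, 7.96 and 6.22 CPM (1.84). Of 14 actin and thymosin genes 5 were lower and 2 higher (-0.29). Tmsb4x, thymosin beta-4, stood at 1160 and 551.5 CPM against 1990, 3056 and 3544 CPM (-1.92, and -1.29 without EA07), and Actb, beta-actin, at 1815 and 1588 CPM against 3081, 3603 and 3043 CPM (-0.96). Of 16 imprinted genes 4 were lower and 2 higher (0.17, with -0.07 under TMM factors and -0.48 without EA07), the lower ones being H19, Igf2, Mest and Cdkn1c. Of the 16, 3 reached 20 CPM at E15.5 alone and so could only lie on the lower side. Of 10 Notch pathway genes 2 were lower, Hes6 and Mfng (0.08, with -0.15 under TMM factors and -0.76 without EA07).

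**Figure D4:**
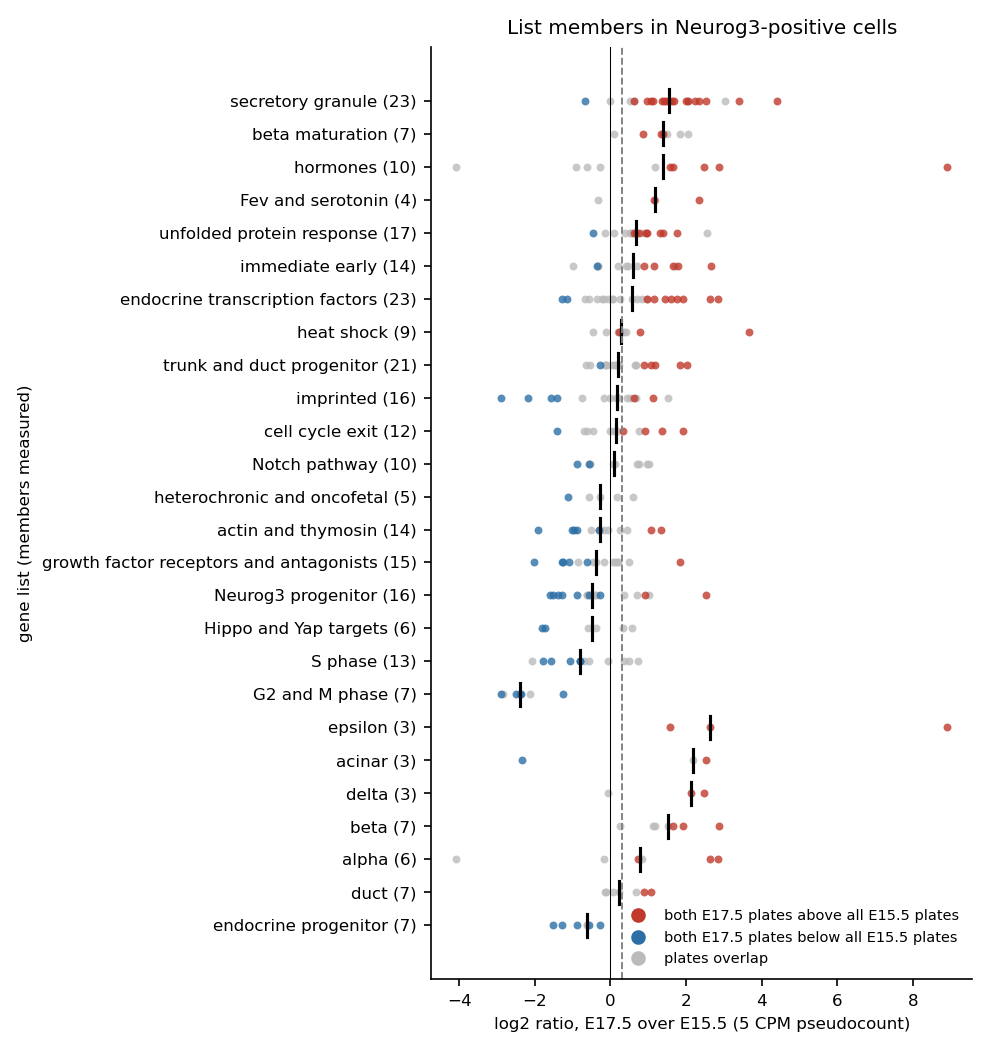
Log2 ratio of E17.5 over E15.5 for the measured members of each list with at least 3 of them, cell type marker lists at the bottom. Red points were higher on both E17.5 plates, blue points lower, grey points overlapped; black bars are list medians and the dashed line is the median of all measured genes, 0.31, with secretory granule genes at 1.54 and G2 and M phase genes at -2.41.

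Markers of other cells in the sort were few. The mesothelium, endothelial, immune and erythroid lists had no measured member, and the defining markers of endothelium had 0 counts at E17.5 in 6 of 6 genes. Of 18 acinar markers 3 were measured, 1 higher (Ctrb1, chymotrypsinogen, at 122.8 and 114.5 CPM against 19.02, 7.04 and 22.2 CPM) and 1 lower (Clps, colipase, at 59.1 and 12.6 CPM against 101.2, 177 and 211.0 CPM). The summed acinar level was 182 to 231 CPM on the E17.5 plates and 127.8 to 252.2 CPM on EA01 to EA03, and 6 and 10 of its genes had 0 counts. Epsilon markers were higher in 3 of 3 measured (median log2 ratio 2.63, and 4.37 without EA01). Ghrl among them reached 20 CPM at E17.5 alone and so could only lie on the higher side. In cells without a hormone only Ghrl of these 3 was higher, and those cells were selected on Ghrl itself. Endocrine progenitor markers were lower in 5 of 7 (-0.63, and -1.46 without EA07, with 2 lower in cells without a hormone). Of 7 beta markers 3 were higher (1.51, and 0.44 without EA07), and 3 of the 7 reached 20 CPM at E17.5 alone, so that these could only lie on the higher side. Of 6 alpha markers 3 were higher (0.78, and 1.59 without EA02) and of 3 delta markers 2 (2.13, and 3.09 without EA01). Of the 6 alpha markers, 1 reached 20 CPM at E17.5 alone. In cells without a hormone 3 of 6 measured alpha markers and 0 of 2 measured delta markers were higher. Duct markers had 2 of 7 higher (0.23).

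Cells passing the same thresholds of Neurog3, Fev and hormones were then set side by side, a choice made after the data were seen. At 500 CPM or more of Neurog3, with neither Fev nor a hormone, were 24 cells at E17.5 and 100 at E15.5. The 24 were 10 cells on EA06 and 14 on EA07. These cells are called matched below for the thresholds alone, and whether they were at a like stage of differentiation was not tested. In them 1168 genes were higher (14.8%) and 862 lower (11%). Of the 1614 genes higher in all Neurog3-positive cells 585 (36.25%) were higher here, of the 690 lower 361 (52.3%) were lower here, and 22 were called the other way. Neurog3 itself was higher in these cells, at 6360 and 7262 CPM against 4553, 4227 and 4297 CPM (log2 ratio 0.68). Pax4 was lower at 898 and 933 CPM against 1381, 1180 and 1451 CPM (-0.54), although Hes6 overlapped, at 376 and 948 CPM against 1005, 971 and 907 CPM. Since the cells were selected on Neurog3, Fev and hormones, those genes are no finding among them.

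Several groups differed within these matched cells. Of 15 imprinted genes measured there, 8 were lower and 2 higher (median log2 ratio -1.60, against 0.32 for all genes measured there). Of the lower ones, H19, Igf2, Mest, Dlk1, Nnat, Ndn and Impact reached 20 CPM at E15.5 alone in these cells. Those could only lie on the lower side, and they weigh on the median. H19 stood at 0 and 0.320 CPM against 64.1, 168 and 56.6 CPM, and the growth factor gene Igf2 at 0 and 0.160 CPM against 70.3, 56.3 and 27.9 CPM. Dlk1, a Notch ligand-like protein gene of fetal tissues, stood at 0.379 and 0 CPM against 32.8, 47.7 and 20.2 CPM, and Mest at 0 and 0.160 CPM against 42.9, 19.2 and 47.3 CPM. All 4 were thus close to 0 on both E17.5 plates in these cells, and all but Dlk1 were lower over all Neurog3-positive cells as well. The higher imprinted genes were Peg3, at 498 and 1122 CPM against 374, 283.0 and 384 CPM, and Plagl1, at 49.8 and 59.3 CPM against 16.1, 27.6 and 25.3 CPM.

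Trunk and duct progenitor genes were called higher in these cells about as often as all genes, 3 of 21 against 14.8%, and none was lower. Of the 3, Sox9, the factor of trunk and duct progenitors, stood at 112.7 and 210.7 CPM against 40.9, 91.4 and 91.8 CPM (log2 ratio 1.20), while over all Neurog3-positive cells its plates overlapped. Keratin 7 (Krt7) stood at 1584 and 1740 CPM against 715, 446 and 664 CPM (1.46) and Tm4sf4, a membrane protein gene, at 588 and 744 CPM against 294, 259 and 243 CPM (1.39). The other 18 overlapped between the stages. Pdx1 was higher at 29.2 and 60.9 CPM against 17.8, 9.90 and 17.52 CPM (1.48), as was Chga at 1210 and 1217 CPM against 193, 49.3 and 167 CPM (3.099). Of 19 granule genes 6 were higher and 2 lower (0.89), and of 16 unfolded protein response genes 7 were higher and 1 lower (0.66). Ttll6 had 0 counts against 483.5, 276 and 311.5 CPM, and Alcam stood at 139.6 and 122.3 CPM against 0.619, 5.92 and 11.8 CPM (3.52).

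Plate EA05 shares stage and strain with the other E15.5 plates and the title suffix with the E17.5 plates, and the rule did not use it. Of the 1614 genes higher at E17.5, EA05 lay below both E17.5 plates in 1172 (72.6%) and above both in 267 (16.5%), and 544 had 0 counts on it. Of the 690 lower genes EA05 lay above both E17.5 plates in 311 (45.07%) and below both in 289 (41.9%). Over the lower genes the median log2 ratio of E17.5 over EA05 was 0.06, against -0.94 for E17.5 over EA01 to EA03. Over all 8002 genes measured with EA05 as the only E15.5 plate, both E17.5 plates lay above it in 50.4% and below it in 31.3%. The 72.6% and 45.07% are to be read beside these shares. With 7 cells on EA05 the counting error of each value is large. Ttll6 was at 98.98 CPM on EA05, Tgm7 at 303, Slc16a5 at 26.4 and Cdk7, a kinase of the transcription machinery, at 220.1 CPM, all above both E17.5 plates. Mfap2 at 0.252, Gtpbp4 at 0 and H19 at 0 CPM were below both. Among higher genes Pcsk1n was at 22.9 CPM, Gch1 at 417, Iapp at 1.51 and Ghrl at 0 CPM, all below both.

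The Neurog3-negative cells of the same plates (52 at E17.5 and 87 at E15.5) gave 1319 higher (16.4%) and 586 lower genes (7.28%) between the same plates. Of the 1614 genes higher in Neurog3-positive cells 334 (20.7%) were also higher there, and of the 690 lower ones 89 (12.9%) were also lower there, while 69 and 36 were called the other way. Ttll6 was at 0 CPM on both E17.5 plates in the negative cells too, against 23.5, 2.95 and 56.98 CPM. H19 had a log2 ratio of -3.39 and Mdk of -1.82 in the negative cells, so both were lower there as well. Fev was at -0.37 and Pdx1 at -0.41 there, against 1.16 and 1.92 in Neurog3-positive cells. The difference between the cell sets was not tested, and they share the plates.

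**Figure D5:**
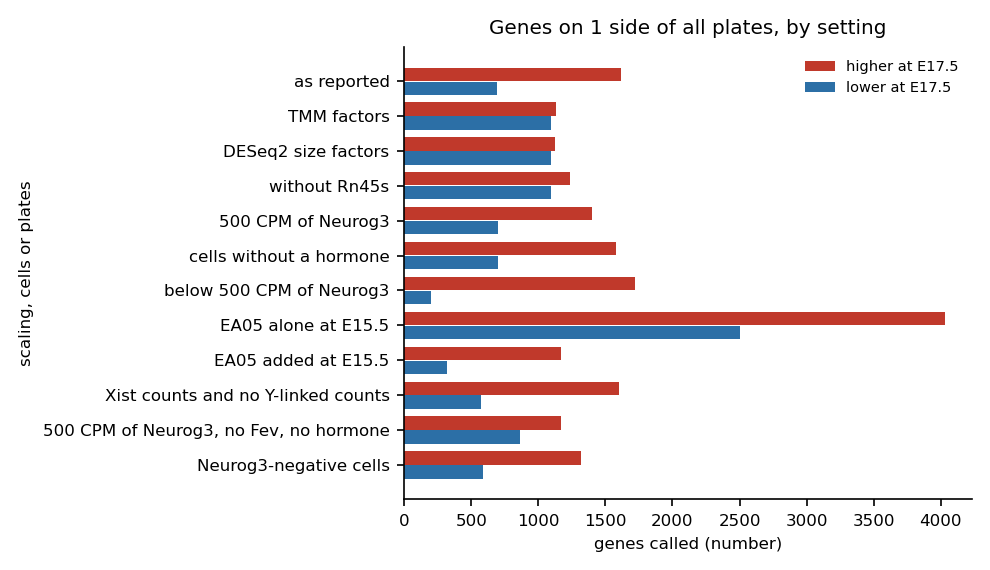
Number of genes called higher (red) and lower (blue) at E17.5 as reported and under other scalings, cells or plates; bars start at 0. The split between directions moves with the scaling, from 1614 and 690 as reported to 1131 and 1097 with TMM factors, and 4031 and 2504 genes lie beyond EA05 when it is the only E15.5 plate.

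Called genes were spread over the genome. On autosomes and chromosome X the share of measured genes that was higher ran from 17.01% on chromosome 15 to 26.9% on chromosome 10, which carries Neurog3 (62133090 to 62134763, plus strand, GRCm38), and the share that was lower from 4.96% on chromosome 19 to 12.9% on chromosome 13. Within 1 Mb of Neurog3, 3 of 15 measured genes were higher and 2 lower. Ghrl lies on chromosome 6 at 113716119 to 113719880 (minus strand), within 1 Mb of the Rosa26 locus at 113067428 to 113077333 that carries the reporter of the E17.5 strain. Of 16 genes measured in that window 5 were higher (31.25%), Camk1, Ghrl, Irak2, Jagn1 and Vhl, and 2 lower (12.5%), Mtmr14 and Setd5. Within 5 Mb of Rosa26, 7 of 34 were higher (20.6%) and 4 lower (11.8%), against 20.3% and 8.69% of all measured genes. Whether the strain's locus has a part in these levels was not tested.

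The promoters of called genes were searched for the E-box letters that neurogenin and NeuroD factors are known to favour, CAGATG, and for the palindromic E-box CAGCTG, on both strands, in the 250 bases before the RefSeq start. CAGATG was found for 11.3% of 1159 higher genes with a promoter in the table, 13.6% of 486 lower genes, 10.8% of 5797 measured genes and 16.3% of all 27025 genes in the table. CAGCTG was found for 13.8% of higher, 18.1% of lower, 13% of measured and 14.7% of all genes. The widest of these gaps to the measured genes was that of CAGCTG among lower genes, and no test was made of it. The windows printed here belong to genes with a match whose levels were given, Neurog3 (the gene that defines the cells), Iapp and Chga (higher at E17.5) and Mfap2 (lower), all on the plus strand of GRCm38.p6, with the matches in capitals (CAGCTG in Neurog3 and Chga, CAGATG read on the minus strand, CATCTG as printed, in Iapp and Mfap2). They are at chr10:62132840-62133089, chr6:142298175-142298424, chr12:102554691-102554940 and chr4:141010174-141010423, in that order.
Neurog3: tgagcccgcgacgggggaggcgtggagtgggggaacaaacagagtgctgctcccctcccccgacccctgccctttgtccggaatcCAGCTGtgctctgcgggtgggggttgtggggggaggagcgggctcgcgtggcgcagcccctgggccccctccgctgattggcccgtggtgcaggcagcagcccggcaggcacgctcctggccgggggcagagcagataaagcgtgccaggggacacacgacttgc
Iapp: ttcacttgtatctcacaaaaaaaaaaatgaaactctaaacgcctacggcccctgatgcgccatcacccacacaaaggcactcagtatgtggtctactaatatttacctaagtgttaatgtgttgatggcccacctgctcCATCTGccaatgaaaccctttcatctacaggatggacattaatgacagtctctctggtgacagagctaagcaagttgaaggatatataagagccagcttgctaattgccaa
Chga: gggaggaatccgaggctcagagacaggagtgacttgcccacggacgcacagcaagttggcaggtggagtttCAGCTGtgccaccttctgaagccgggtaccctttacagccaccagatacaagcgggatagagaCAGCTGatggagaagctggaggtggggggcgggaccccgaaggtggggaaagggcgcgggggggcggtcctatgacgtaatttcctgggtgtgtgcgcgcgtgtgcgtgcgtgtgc
Mfap2: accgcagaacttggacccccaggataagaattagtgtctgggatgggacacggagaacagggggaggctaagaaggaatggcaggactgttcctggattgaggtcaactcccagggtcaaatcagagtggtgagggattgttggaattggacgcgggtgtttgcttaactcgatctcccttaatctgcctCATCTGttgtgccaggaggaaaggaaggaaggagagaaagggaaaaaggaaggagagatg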

How the data were processed

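Single cells were sequenced by Smart-Seq2, 1 cell per library, and the authors deposited raw counts per gene (23002 genes, 495 cells). Per the submitters' processing notes, STAR, HTSeq, FastQC and the mm10 build were used; their versions, the strand setting and filters are not given there. There are no molecular identifiers, so intervals (exact Poisson or Clopper-Pearson, 95%) and floors (3 counts) cover counting error only. The members and the gene lists were chosen with earlier results of these data known.

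Counts of Neurog3-positive cells (20 CPM or more) were summed per plate and divided by the plate's total. Genes at 20 CPM or more at either stage were measured, log2 ratios used a pseudocount of 5 CPM, and a gene was called where both E17.5 plates lay beyond all 3 E15.5 plates. With 1 sample per stage no count model was tested, and edgeR and DESeq2 served only for scaling factors. Leading genes were the 15 with the widest gap between plates in each direction, at 50 CPM or more at the higher stage, at 10 CPM in 25% or more of its cells and with the same call in cells without a hormone. Also named by rule were up to 4 measured members per list with the largest absolute log2 ratio, Neurog3, Fev, Sox9, Pdx1, Nkx6-1, Neurod1, Pax4 and the hormones. Any other gene was named after its values were seen, and 3 genes that these rules would name are not reported here. No pair of cells held identical counts. No doublet caller was run.

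Alternatives were other scalings (TMM, DESeq2 size factors, totals without Rn45s), pseudocounts of 1 and 20, and other filters and Neurog3 thresholds. Further ones were cells thinned to 200000 counts, plates left out, and EA05 in place of or beside the E15.5 plates. Added after the data were seen were cells matched by thresholds of Neurog3, Fev and hormones, cells with Xist and no Y-linked counts, and Neurog3-negative cells. Promoter sequences are RefSeq's for GRCm38.p6, matched by symbol for 93 of 121 named genes. Tools were Python 3.11.15, numpy 2.4.6, pandas 2.3.3, scipy 1.17.1, matplotlib 3.10.9, R 4.3.3, edgeR 4.0.16 and DESeq2 1.42.0. The calls were checked on data simulated from a single pooled profile with known fold changes and no other difference between plates. False calls where plates differ were not tested.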

Additional observations from a re-analysis of the deposited data

Results flagged for a closer look

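Ins1, an insulin gene, was higher in Neurog3-positive cells at E17.5 and lower in the Neurog3-negative cells of the same plates. In Neurog3-positive cells it stood at 9.89 and 30.3 CPM on EA06 and EA07, against 6.23, 1.53 and 4.07 CPM on EA01, EA02 and EA03 (log2 ratio 1.66, and 0.72 without EA07). In Neurog3-negative cells its log2 ratio was -1.09, with every E17.5 plate below every E15.5 plate. The difference between the cell sets was not tested, and the levels in Neurog3-positive cells are low: Ins1 was at 10 CPM or more in 10.4% of E17.5 and 3.91% of E15.5 cells.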

How the results depend on the processing

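The number of higher genes (1614) was 1027 with a 50 CPM gene filter and 4031 with EA05 as the only E15.5 plate, and 2044 to 3855 with 1 plate left out. The number of lower genes (690) was 1097 with TMM factors, 1092 with DESeq2 size factors, 1098 without Rn45s, 201 in cells below 500 CPM of Neurog3, 2504 with EA05 as the only E15.5 plate, 317 with EA05 added, and 998 to 2075 with 1 plate left out, fewer plates making the rule easier to pass. The log2 ratio of Neurog3 (-0.28) was 0.035 at a threshold of 100 CPM and 0.36 at 500 CPM. It was 0.039 without hormone-positive cells, 0.18 against EA05 and 0.68 in the matched cells. Against EA05 alone, Mfap2 was at 2.67, Anp32a at 0.44, H19 at 1.14, Fscn1 at 1.05, Dab1 at 2.32 and Gtpbp4 at 3.44. Below 500 CPM of Neurog3, where 34 cells at E17.5 and 11 at E15.5 were left, Epc2 was at 1.08 and Pax4 at 0.016. At 500 CPM or more Sst was at -1.82, and in the matched cells Iapp was at -0.79. The cause of these changes was not tested. With 2 G2 and M genes required in place of 3, cycling cells were 3.90% at E17.5 (0% as reported) and 13.3% at E15.5 (4.69%). Among cells with Xist and no Y-linked counts (74 at E17.5, 62 at E15.5), 1142 of the 1614 higher (70.8%) and 380 of the 690 lower genes (55.1%) kept their call. The calls kept in 6 settings (above and below 500 CPM, no hormone, both scalings, and without 2 well rows) were 233 higher (14.4%) and 43 lower (6.23%). Below 500 CPM alone, with its 11 E15.5 cells, 704 of the higher (43.6%) and 75 of the lower calls (10.9%) were kept. No paired analysis was possible because the plates carry no shared replicate numbers. Pooling 7 cells, EA05 has the least depth.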

Other observations

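Fev was at 20 CPM or more in 30 of 52 Neurog3-negative cells at E17.5 (57.7%, 43.2 to 71.3) and 45 of 87 at E15.5 (51.7%, 40.8 to 62.6). Ins2 at 1000 CPM or more was read in 11 of 52 Neurog3-negative cells at E17.5 (21.2%, 11.1 to 34.7) and 26 of 87 at E15.5 (29.9%, 20.5 to 40.6). In Neurog3-positive cells at E17.5 Ins2 reached that level in 2 of 77 and Ghrl in 15 of 77. Sox4 had a log2 ratio of 3.36 in the Neurog3-negative cells, where both E17.5 plates were also above the E15.5 plates.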
